A study of Mus musculus with 6 samples.

Results

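Genes that mark the choroid plexus were examined in whole brain RNA after injection of LPS or vehicle, to ask whether their expression differed after systemic inflammation. The set was chosen by name and held 9 genes, of which 8 (Ttr, Kl, Clic6, Folr1, Aqp1, Otx2, Slc4a5 and Sostdc1) could be measured, each by 1 transcript cluster that names the gene alone. They were 8 of 19938 genes named alone and 8 of 35556 transcript clusters on the array. No transcript cluster is assigned to the ninth gene, Enpp2, in the annotation used here, and it was not analysed here. Here a transcript cluster means the group of array probes that together report on 1 transcribed locus.

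All 6 mice were male C57BL/6 animals that were 7 to 8 weeks old when purchased. The 3 LPS-treated mice received 4 mg/kg of LPS from Escherichia coli serotype 055:B5 by the intraperitoneal route, and the 3 controls received PBS by the same route. Brains were collected 48 hours after injection, following perfusion with PBS, and each was hybridized to 1 GeneChip Mouse Gene 1.0 ST array. Values are log2 expression after robust multichip average (RMA) normalization, so that a difference of 1 is a doubling.

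The choroid plexus is a sheet of cuboidal epithelium around leaky capillaries in the brain ventricles, where it secretes cerebrospinal fluid and forms the barrier between blood and that fluid. Its epithelial cells carry water and ions across the sheet, take up folate, and secrete carrier proteins and hormones into the fluid. Because the plexus is a very small share of a whole brain, its marker genes also depend on how much of it was collected with each brain. In such bulk samples fewer choroid plexus cells and less RNA per cell cannot be told apart.

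None of the 8 choroid plexus genes passed the test for a difference between the LPS and the vehicle group. Differences on the log2 scale ran from -0.27 for Folr1 to 0.03 for Otx2, with adjusted p from 0.577 to 0.995 from limma, and none passed in the methods' t-test. At an unadjusted p under 0.05, 0 of the 8 genes passed, against 14.3% of all clusters. Over all transcript clusters limma called 0.714% at an adjusted p under 0.05 (0.652% higher and 0.0619% lower), a share at which no call among 8 genes does not set them apart. The median difference of the 8 genes was -0.09, against -0.0009 over all clusters. In none of the 8 genes were the LPS arrays apart from the PBS arrays. The groups were apart in 20.0% of all clusters, a share at which none among 8 genes is not unusual. In 5 of the 8 genes LPS replicate 3 lay on the other side of the controls from LPS replicates 1 and 2, whereas Folr1, Aqp1 and Otx2 did not have this order.

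**Figure D1:**
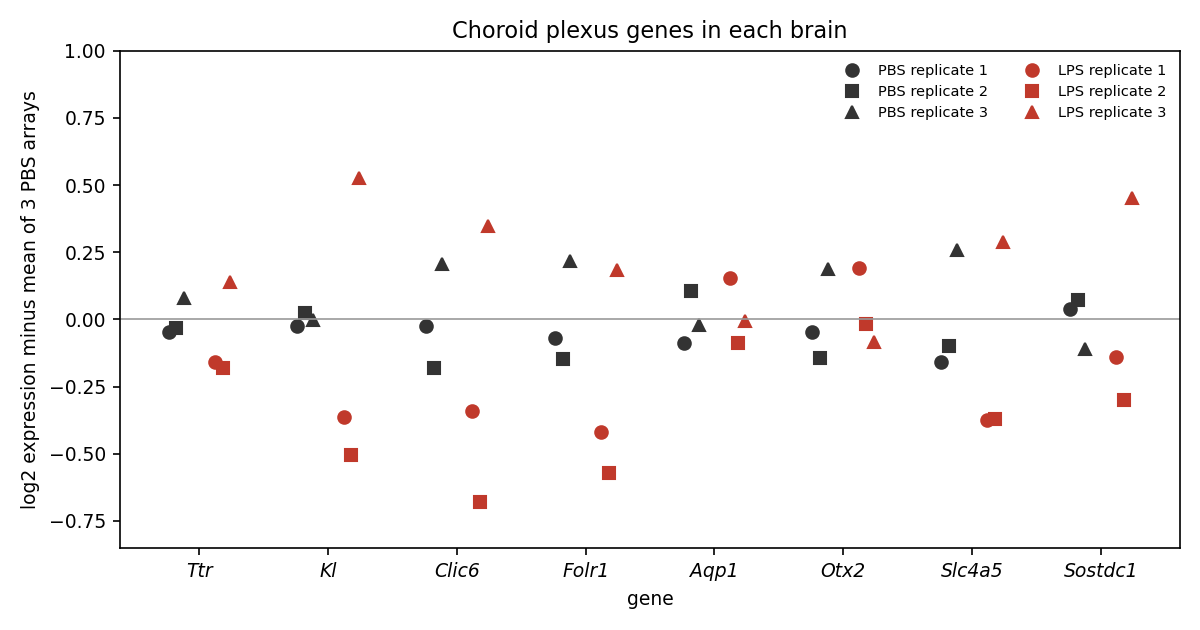
Log2 expression of the 8 choroid plexus genes in each brain (vertical axis, log2 units) minus the mean of the 3 PBS arrays, with 1 symbol per mouse, dark for PBS and red for LPS. In Ttr, Kl, Clic6, Slc4a5 and Sostdc1 the red triangle of LPS replicate 3 lies above all PBS arrays while the red circle and square of LPS replicates 1 and 2 lie below them.

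Among the secreted products, Ttr encodes transthyretin, the carrier of thyroxine and of the retinol-binding protein that the plexus releases into cerebrospinal fluid. Ttr was at 13.06, 13.07 and 13.18 in PBS replicates 1, 2 and 3 and at 12.95, 12.92 and 13.24 in LPS replicates 1, 2 and 3. The first 2 LPS arrays were below the controls and the third was above them. The difference was -0.07 (95% confidence interval -0.32 to 0.19, adjusted p = 0.804 from limma), so that the interval for its fold change runs from 0.799 to 1.14. Of the 8 genes, Ttr, Aqp1 and Otx2 had the narrowest intervals.

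Kl encodes klotho, a coreceptor for FGF23 whose shed form is released into cerebrospinal fluid. Its PBS arrays were nearly equal, at 8.25, 8.30 and 8.28, whereas its LPS arrays were at 7.92, 7.77 and 8.81. Both of the lower LPS arrays were below every control and the third was above every control by more than the whole range of the controls, which was 0.05. The SD was 0.02 over the PBS arrays and 0.56 over the LPS arrays, the largest SD among the 8 genes. The difference between the groups was -0.11 (95% confidence interval -0.72 to 0.49, adjusted p = 0.870 from limma).

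Sostdc1 encodes a secreted antagonist of BMP and WNT signalling. It was at 8.41, 8.44 and 8.26 after vehicle and at 8.23, 8.07 and 8.82 after LPS. The means were 8.37 ± 0.10 (SD, n = 3) and 8.38 ± 0.40 (SD, n = 3), a difference of 0.0042 that was far smaller than the spread (adjusted p = 0.995 from limma). The same order of the LPS arrays as in Ttr and Kl was seen here, with LPS replicate 2 lowest and LPS replicate 3 highest of all 6 arrays.

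Among the uptake and transport genes, Folr1 encodes the folate receptor alpha, which moves folate from blood to cerebrospinal fluid. Folr1 was at 7.21, 7.13 and 7.50 in the PBS arrays and at 6.86, 6.71 and 7.46 in the LPS arrays, so that LPS replicate 3 lay within the range of the controls and the other LPS arrays below it. Its difference of -0.27 (95% confidence interval -0.76 to 0.22, adjusted p = 0.577 from limma) was the largest of the 8 in size. Clic6, which encodes a chloride intracellular channel protein, was at 8.06, 7.90 and 8.29 after vehicle and at 7.74, 7.41 and 8.43 after LPS. Its groups overlapped through LPS replicate 3 alone, which was the highest of the 6 arrays. Its difference was -0.22 (95% confidence interval -0.83 to 0.38, adjusted p = 0.719 from limma). Slc4a5, which encodes a sodium bicarbonate cotransporter, was at 6.93, 6.99 and 7.35 after vehicle and at 6.72, 6.72 and 7.38 after LPS. Here PBS replicate 3 and LPS replicate 3 were close together above the other 4 arrays, and the difference was -0.15 (adjusted p = 0.765 from limma).

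The remaining genes had another order of arrays. Aqp1, which encodes the water channel aquaporin 1, was at 6.34, 6.53 and 6.41 after vehicle and at 6.58, 6.34 and 6.42 after LPS. The highest value was in LPS replicate 1, and the lowest values, in LPS replicate 2 and PBS replicate 1, were nearly equal. The difference of Aqp1 was 0.02 (95% confidence interval -0.21 to 0.25, adjusted p = 0.945 from limma), and it turned to -0.06 after quantile normalization and to -0.07 with each array centred on its median. Its PBS mean lay above 92.7% of the 1210 clusters of odorant and vomeronasal receptors, a family with little transcription in brain, and the other 7 genes lay above at least 99.3% of them. By this measure Aqp1 was the member nearest to the background. Otx2, which encodes a homeobox transcription factor of the dorsal midline that the plexus needs for its formation, was at 7.26, 7.16 and 7.50 after vehicle and at 7.50, 7.29 and 7.22 after LPS. Its LPS arrays all lay within or at the upper edge of the controls. The difference was 0.03 (95% confidence interval -0.25 to 0.31, adjusted p = 0.930 from limma), and it turned to -0.06 under either scaling.

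Exact two-sided permutation p ranged from 0.3 to 1 for the 8 genes, where 0.1 is the smallest that 3 against 3 arrays allow. The limma intervals of the 8 genes reached from a fold change of 0.563 at the lower end, in Clic6, to 1.41 at the upper end, in Kl. Each gene's own interval gives the range of changes that these arrays leave possible for it, and it was widest in Kl and Clic6.

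**Figure D2:**
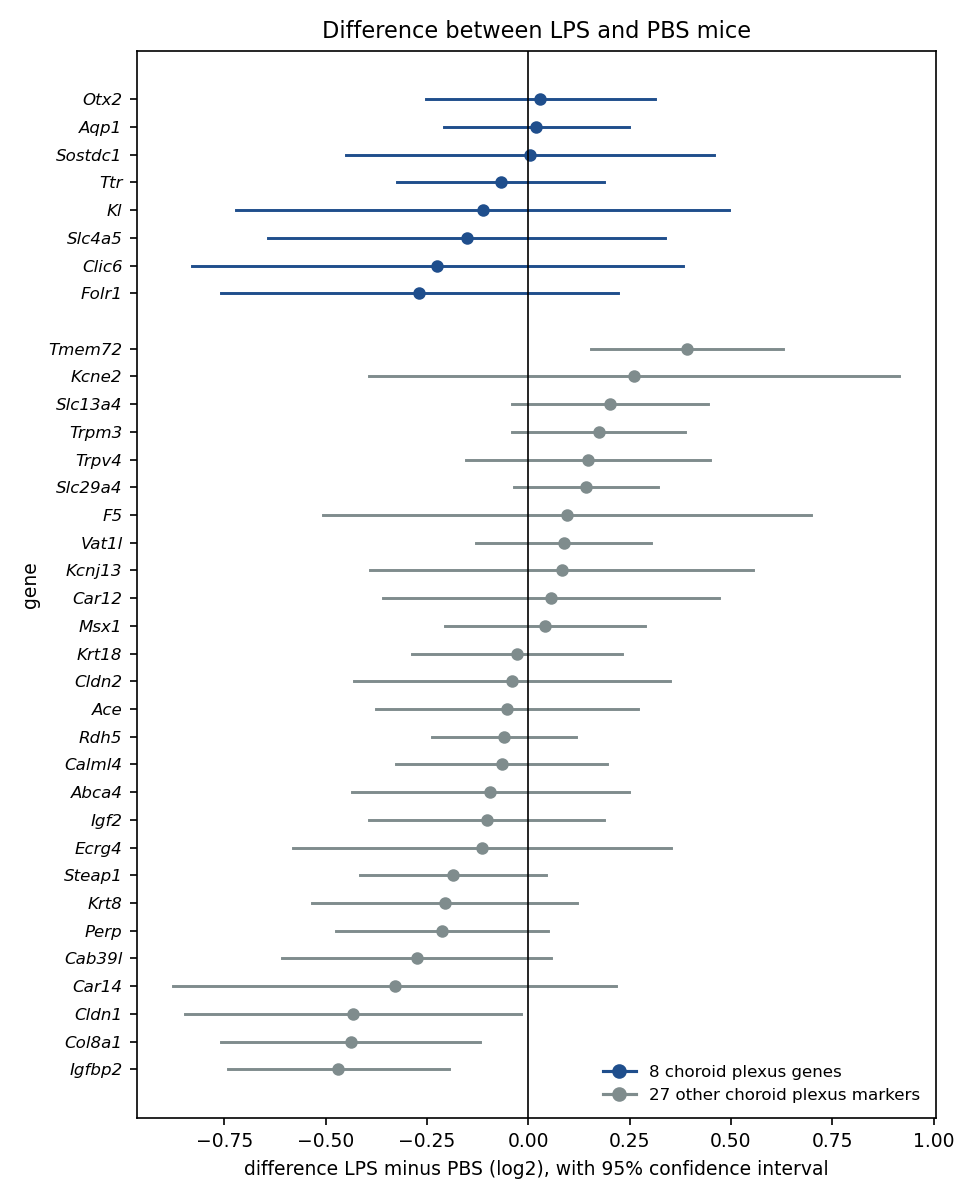
Difference between LPS and PBS mice (horizontal axis, log2 units) with 95% confidence intervals from limma for the 8 choroid plexus genes (blue) and 27 other choroid plexus epithelium markers (grey). All 8 blue intervals include 0, and the differences of the 8 genes run from -0.27 to 0.03.

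The pattern of single arrays can be counted over the set. LPS replicate 1 lay below all PBS arrays in 6 of the 8 genes (31.9% of all clusters), LPS replicate 2 in 7 of 8 (32.8% of all clusters) and LPS replicate 3 in 0 of 8 (31.6% of all clusters). LPS replicate 1 lay above all PBS arrays in 2 of the 8 genes, Aqp1 and Otx2 (31.6% of all clusters), and LPS replicate 2 in 0 of 8 (36.5% of all clusters). In Aqp1 LPS replicate 2 was nearly level with PBS replicate 1 (6.3389 and 6.3393), and in Otx2 LPS replicate 1 with PBS replicate 3 (7.4981 and 7.4969). LPS replicate 3 lay above all PBS arrays in 5 of the 8 genes, against 26.7% of all clusters. In these 5 genes, Ttr, Kl, Clic6, Slc4a5 and Sostdc1, LPS replicates 1 and 2 were at the same time below all controls, a combination that was seen in 3.58% of all clusters. The mean of the 8 genes was lower than the PBS mean by 0.18 in LPS replicate 1 and by 0.34 in LPS replicate 2, and higher by 0.23 in LPS replicate 3. The SD over the LPS arrays was above that over the PBS arrays in 7 of the 8 genes, all but Otx2, against 64.0% of all clusters. The median SD of the 8 genes was 0.14 over the PBS arrays and 0.39 over the LPS arrays, where all clusters had 0.10 and 0.14.

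LPS replicates 1 and 2 also differed from the other arrays over the whole array. Their median log2 values were 7.09 and 7.11, against 6.96 to 6.98 in the other 4 arrays, and their part in the pattern of the choroid plexus genes was not tested. Treatment itself was evident in every LPS array, since Lcn2, the gene of lipocalin 2, a protein of the acute phase response, was at 5.71 to 6.33 in the PBS arrays and at 10.80 to 11.18 in the LPS arrays (adjusted p = 0.000878 from limma). Tbp, the reference gene of the qPCR, differed by -0.0041 between the groups (adjusted p = 0.991 from limma). Its single LPS arrays varied, at 0.01, 0.16 and -0.18 relative to the PBS mean in LPS replicates 1, 2 and 3.

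Leaving out LPS replicate 3 raised the count of calls over the whole array, from 254 to 3792 clusters, and among the 8 genes. Without LPS replicate 3, Kl was lower with a difference of -0.43 (95% confidence interval -0.63 to -0.23, adjusted p = 0.0277 from limma), while the other 7 genes did not pass. In that fit 10.7% of all clusters were called, 3.24% of all clusters being lower. Folr1 and Clic6 then had differences of -0.49 and -0.51 (adjusted p = 0.0609 and 0.0848 from limma). When LPS replicates 1 and 2 were removed together, the spread of the lone LPS array had to be taken from the PBS arrays, and Kl had a difference of 0.53 (adjusted p = 0.197 from limma) and Sostdc1 of 0.45 (adjusted p = 0.327 from limma). Leaving out any other single array gave no call among the 8 genes.

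**Figure D3:**
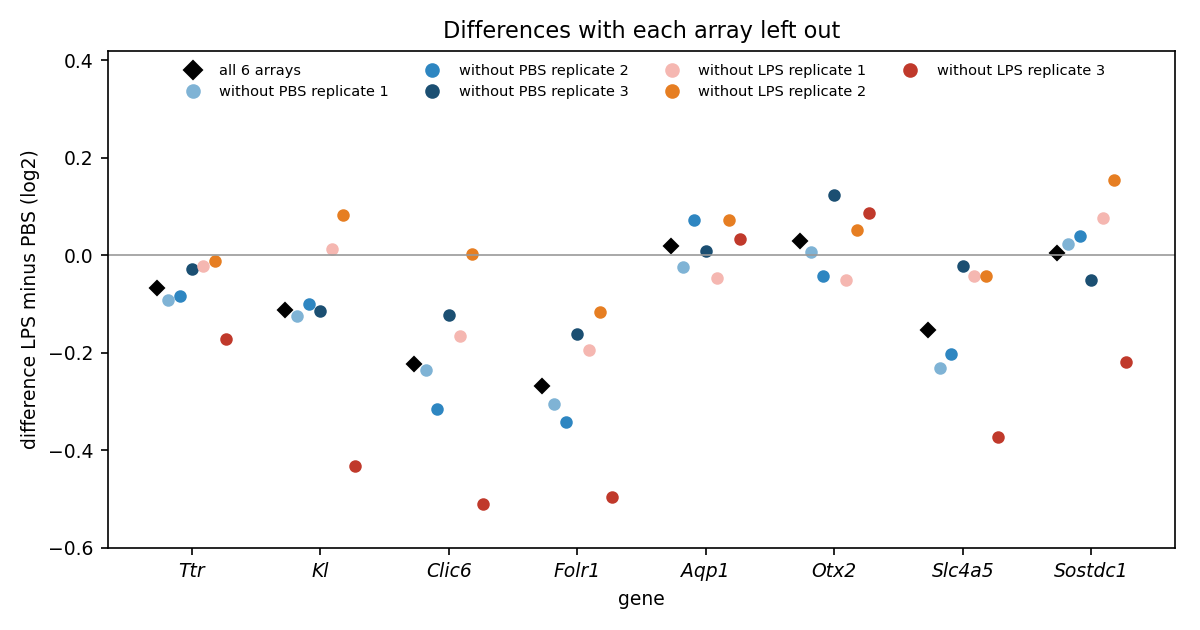
Difference between LPS and PBS mice (vertical axis, log2 units) for each of the 8 genes over all 6 arrays (black diamond) and with each array left out in turn (coloured circles). In Ttr, Kl, Clic6, Folr1, Slc4a5 and Sostdc1 the lowest value is the one without LPS replicate 3, which is -0.43 in Kl.

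A wider list of choroid plexus epithelium markers behaved alike as far as calls go. Of 30 such genes 27 were measured, and 0 were called higher or lower by limma, and the methods' t-test called 0 as well. At an unadjusted p under 0.05, 1 was higher and 3 were lower, 4 of 27 genes against 14.3% of all clusters, so that the share was near the background. Their median difference was -0.05. Igfbp2, which encodes an insulin-like growth factor binding protein, was at 7.59, 7.62 and 7.82 after vehicle and at 7.18, 7.05 and 7.39 after LPS. All 3 LPS arrays were below all controls, with a difference of -0.47 (adjusted p = 0.177 from limma). Col8a1, which encodes a collagen chain, and Cldn1, which encodes a tight junction claudin, had differences of -0.44 and -0.43 (adjusted p = 0.255 and 0.336 from limma). Tmem72, a gene of a transmembrane protein, had a difference of 0.39 (adjusted p = 0.189 from limma), with the LPS arrays at 6.57 to 6.86 and the PBS arrays at 6.22 to 6.39. The groups were apart in 6 of the 27 genes, near the background of 20.0% of all clusters. Without LPS replicate 3, Igfbp2, Cab39l and Cldn1 were lower (adjusted p = 0.0245, 0.0413 and 0.0460 from limma). They were the only calls among the 27 genes in that fit, which called 10.7% of all clusters, 3.24% of all clusters being lower.

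Over these 27 genes the order of the LPS arrays was the same in the mean, at -0.09, -0.18 and 0.11 relative to the PBS mean in LPS replicates 1, 2 and 3. LPS replicates 1 and 2 were both below all controls in 12 of the 27 genes (22.2% of all clusters), and in 6 of these LPS replicate 3 was above all controls (3.58% of all clusters). Kcnj13, which encodes an apical potassium channel of the epithelium, was at 9.80, 9.91 and 10.21 after vehicle and at 9.94, 9.76 and 10.47 after LPS. Kcne2, a potassium channel subunit, went the other way, at 7.51, 6.68 and 6.98 after vehicle and at 7.56, 7.58 and 6.81 after LPS. The order was therefore not shared by every marker of the tissue.

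The 10 genes whose values over the 6 arrays were nearest to the mean pattern of the 8 genes were not on the wider list of choroid plexus markers. Nearness was measured as the root mean square difference over the 6 arrays after each gene was centred on its own mean, among 13167 named genes with at least 50% of the range of the pattern. This measure depends on the size of the differences between arrays as well as on their order. A gene with the same order but larger differences therefore ranks further away. The nearest were Galk2, Fam126a, Psmd7, Ginm1, Exoc3, Glo1, 1700028P14Rik, Zcchc2, Echs1 and Clvs2, with root mean square differences from 0.03 to 0.04 on the log2 scale. Psmd7 encodes a subunit of the proteasome and Echs1 an enzyme of mitochondrial fatty acid oxidation. The nearest of the wider choroid plexus markers was Igf2, at rank 23 and 0.05. Of 24 such markers that were compared, 8 (33.3%) were among the nearest 10% of genes. For Ttr alone the 5 nearest genes were Rlim, Sgsm1, Eif3e, Klhl34 and S100a1.

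The genes that act with the members were then read by pathway, in lists that also hold the members of the same role. Of 14 measured genes for secretion of cerebrospinal fluid and ion transport, 0 were called in limma or in the methods' t-test and 0 passed at an unadjusted p under 0.05, and their differences ran from -0.33 for Car14 to 0.26 for Kcne2. They included Slc12a2, the sodium, potassium and chloride cotransporter of the apical membrane, with a difference of 0.10 (adjusted p = 0.605 from limma). Car2, a carbonic anhydrase, had a difference of -0.11 and Slc4a2, an anion exchanger, one of -0.15, with limma giving an adjusted p of 0.680 and 0.604.

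In the list for thyroid hormone and retinol transport, limma called 1 of 9 measured genes higher and 0 lower, against 0.714% of all clusters called. The other 8 did not pass, and the methods' t-test called 0. At an unadjusted p under 0.05, 3 were higher (Stra6, Slco1c1 and Dio3) and 2 lower (Crabp2 and Dio2), against 14.3% of all clusters in either direction. Dio3 was at background, with a PBS mean above only 2.81% of the odorant and vomeronasal receptor clusters. The called gene was Stra6, which encodes the cell surface receptor for the retinol-binding protein, and which is also found in the blood vessels of the brain. Stra6 was at 8.14, 8.24 and 8.38 in the PBS arrays and at 9.43, 9.24 and 9.23 in the LPS arrays. The 3 LPS arrays were all above the controls and close to each other, unlike those of Ttr. Stra6 rose by 1.04 on the log2 scale (standard error 0.10, 95% confidence interval 0.81 to 1.28, adjusted p = 0.00807 from limma), a fold change of 2.06. The call of Stra6 was lost without PBS replicate 1 or 2 (adjusted p = 0.0545 and 0.0631 from limma), with the replicate block (adjusted p = 0.0731 from limma), with LPS replicates 1 and 2 both removed (adjusted p = 0.101 from limma) and in the methods' t-test (adjusted p = 0.104), and its difference stayed between 0.95 and 1.11 under all alternatives run.

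Rbp4, which encodes the retinol-binding protein itself, was at 9.43, 9.29 and 9.47 after vehicle and at 9.03, 8.67 and 9.47 after LPS, so that LPS replicates 1 and 2 were below the controls and LPS replicate 3 among them (difference -0.34, adjusted p = 0.449 from limma). Slco1c1, a thyroxine transporter of brain capillaries and the choroid plexus, was at 9.24 to 9.72 after vehicle and at 9.99 to 10.09 after LPS, without overlap. Its difference of 0.54 did not pass (adjusted p = 0.173 from limma). Dio2, the deiodinase that activates thyroxine, had a difference of -0.46 and Crabp2, a retinoic acid binding protein, one of -0.52 (adjusted p = 0.246 and 0.263 from limma), with the groups apart in both. The groups were apart in 6 of the 9 genes of this list, Dio3 at background among them, against 20.0% of all clusters.

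**Figure D4:**
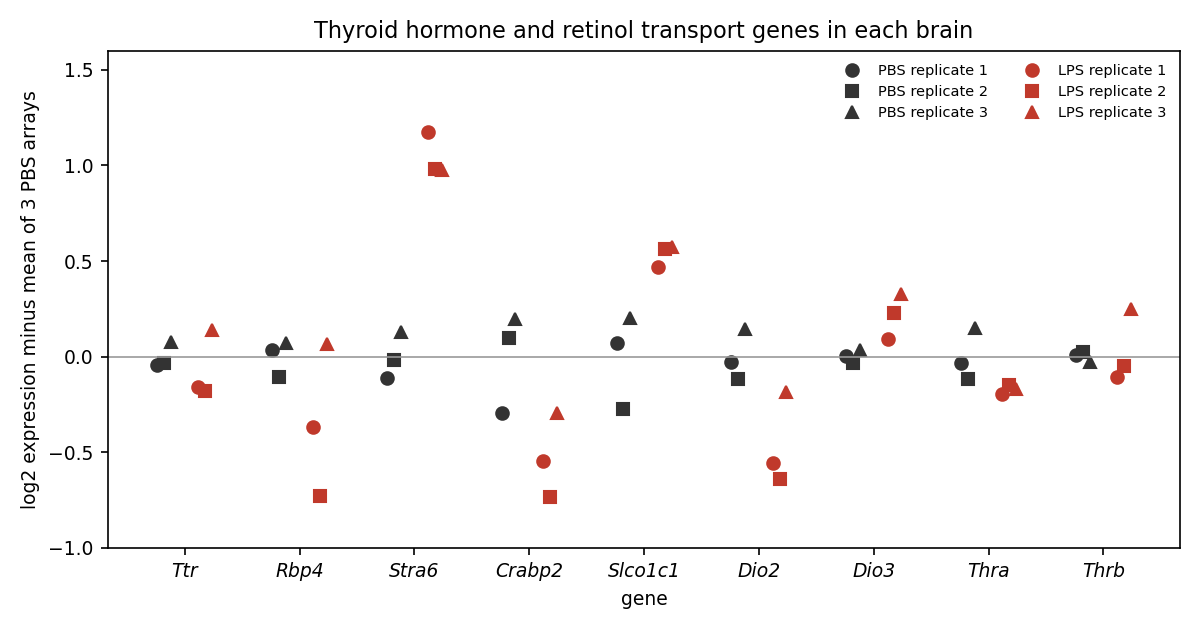
Log2 expression of 9 thyroid hormone and retinol transport genes in each brain (vertical axis, log2 units) minus the mean of the 3 PBS arrays, with 1 symbol per mouse, dark for PBS and red for LPS. The 3 red symbols of Stra6 lie together near 1.04, whereas those of Ttr lie on both sides of the controls. Those of Rbp4 lie below the controls in LPS replicates 1 and 2 and among them in LPS replicate 3.

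Of 7 genes of klotho and the FGF receptors, 0 were called by limma or the methods' t-test. At an unadjusted p under 0.05, 1 was lower, against 14.3% of all clusters in either direction. This was Fgfr3, with a difference of -0.31 (adjusted p = 0.236 from limma), while Fgfr1, a partner receptor of klotho, had one of 0.07 (adjusted p = 0.722 from limma). None of 4 measured folate transport genes was called, and 0 passed at an unadjusted p under 0.05 or in the methods' t-test. Slc46a1, the proton-coupled folate transporter, had a difference of -0.02 and Slc19a1, the reduced folate carrier, one of 0.09 (adjusted p = 0.953 and 0.803 from limma). Of 8 measured genes of lysophosphatidic acid signalling, the pathway fed by the enzyme that Enpp2 encodes, 0 were called by either test. At an unadjusted p under 0.05, 1 was higher and 1 lower, against the same 14.3% of all clusters. The higher one was the receptor gene Lpar6, with a difference of 0.45, and the lower one Lpar3, with -0.19 (adjusted p = 0.157 and 0.333 from limma). The PBS mean of Lpar3 was above only 44.6% of the odorant and vomeronasal receptor clusters, so that it was at background.

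Of 15 BMP and WNT genes, listed around Sostdc1, 0 were called by limma or the methods' t-test. At an unadjusted p under 0.05, 1 was higher, against 14.3% of all clusters in either direction. This was Lrp6, a WNT coreceptor, with a difference of 0.26 (adjusted p = 0.200 from limma). Of 12 measured transcription factor genes of the dorsal midline and choroid plexus, neither test called any. By the unadjusted p under 0.05, 1 had a lower level, against the same 14.3% of all clusters. This was Emx2, a homeobox gene of the dorsal forebrain, at 7.88, 7.77 and 7.91 after vehicle and at 6.67, 6.79 and 7.70 after LPS. The difference of Emx2 was -0.80 (adjusted p = 0.269 from limma), and most of it lay in LPS replicates 1 and 2.

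Neighbouring tissues and regions were read in the same brains, since sampling can vary between animals. The mean level of 14 ependymal and motile cilia genes was at -0.02, -0.07 and 0.10 relative to the controls in LPS replicates 1, 2 and 3, an order like that of the choroid plexus genes with a smaller range. None of these 14 genes was called by limma or the methods' t-test, with 2 higher (Rarres2 and Dnah11) and 1 lower (Cfap126) at an unadjusted p under 0.05, against 14.3% of all clusters. The PBS mean of Dnah11 was above 74.0% of the odorant and vomeronasal receptor clusters, nearer to the background than that of Rarres2 or Cfap126. Rarres2, which encodes chemerin, had the smallest p, with a difference of 0.46 (adjusted p = 0.173 from limma).

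The leptomeninges and choroid stroma list had 13 measured genes. Of these, limma called 1 higher and 0 lower, against 0.714% of all clusters called, and the methods' t-test called 0. The called gene was Dcn, which encodes the matrix proteoglycan decorin, at 10.52, 10.38 and 10.46 after vehicle and at 11.04, 11.00 and 11.26 after LPS. Dcn rose by 0.64 on the log2 scale (standard error 0.10, adjusted p = 0.0466 from limma). Its call was lost when any 1 of the arrays except LPS replicate 3 was removed (highest adjusted p = 0.230), with LPS replicates 1 and 2 both removed (adjusted p = 0.104), with arrays centred on the median (adjusted p = 0.155), with the replicate block (adjusted p = 0.128) and in the methods' t-test (adjusted p = 0.189), while its difference stayed between 0.55 and 0.81 under all alternatives run. Of 4 genes listed for the fenestrated endothelium, 0 were called by either test. At an unadjusted p under 0.05, 1 passed, against 14.3% of all clusters. This was Cd24a, with a difference of -0.49 (adjusted p = 0.300 from limma). Cd24a is also a marker of ependymal and other epithelial cells, so that its values are not particular to the endothelium. Plvap, the defining gene of fenestrated capillaries in this list, had a difference of -0.02 (adjusted p = 0.935 from limma).

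The mean of 8 olfactory bulb genes was at -0.25, -0.31 and -0.11 relative to the controls in LPS replicates 1, 2 and 3, and its 3 LPS values of 7.06, 7.00 and 7.20 were all below the PBS values of 7.33, 7.23 and 7.37. None of the 8 genes was called by limma or the methods' t-test. Only Eomes, with a difference of -0.78 (adjusted p = 0.132 from limma), had an unadjusted p under 0.05, against 14.3% of all clusters. The mean of 9 cerebellum genes was at 0.07, 0.08 and 0.04, with 0 called by either test and 2 higher (Fat2 and Neurod1) and 1 lower (Pvalb) at an unadjusted p under 0.05, against 14.3% of all clusters. The means of 7 pineal genes and 8 pituitary genes stayed between -0.12 and 0.04 of the controls. No gene of these 2 lists was called by either test. Of both lists together Tbx19, a pituitary gene at background level, alone had an unadjusted p under 0.05, against 14.3% of all clusters. In these lists 4 of 7 pineal and 3 of 8 pituitary genes had a PBS mean under the median PBS mean of those receptor clusters. The pineal Tph1 and the pituitary Prl were within 5.17 to 5.79 on every array. The 2 measured red blood cell genes, Alas2 and Slc4a1, had differences of -0.25 and -0.03, and neither was called by either test. Alas2 had an unadjusted p under 0.05, against 14.3% of all clusters. Its PBS mean was above 78.2% of the odorant and vomeronasal receptor clusters. The share of these tissues in the spread of the choroid plexus genes was not tested.

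**Figure D5:**
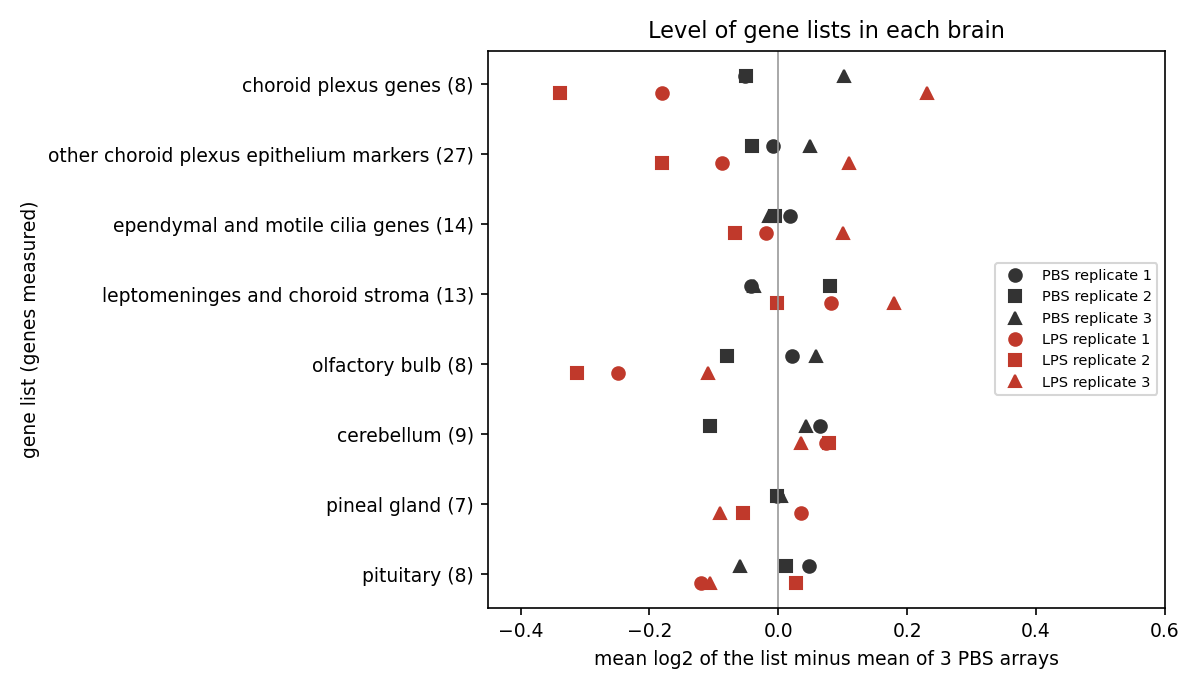
Mean log2 level of each gene list in each brain (horizontal axis, log2 units) minus the mean of the 3 PBS arrays, with 1 symbol per mouse, dark for PBS and red for LPS, and the number of genes measured in brackets. The 8 choroid plexus genes spread from -0.34 to 0.23 over the LPS arrays, wider than any other list shown.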

How the data were processed

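RNA of 6 whole brains, 3 after LPS and 3 after PBS, was measured on 1 Mouse Gene 1.0 ST array each. The authors deposited log2 expression values from RMA, a procedure of background correction, quantile normalization over the arrays and summary of probes into clusters, and these were used unchanged. The methods name 2 RMA versions, in the Partek and the GeneSpring software, and which one gave these values is not stated. The fold change of Lcn2 in them, 29.29, equals that in the paper's Partek list and not that in its GeneSpring list. In this gene the values therefore match the Partek version, adjusted for GC content. RMA equalises total signal, so that differences are relative to the rest of the array.

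Clusters were named from the platform annotation of 2016, and only where it names 1 gene (21789 of 35556 clusters). The cluster with the highest mean stood for a gene. Groups came from the sample titles. Differences were tested by a two-sided moderated test in limma 3.58.1 (functions lmFit and eBayes, under R 4.3.3). All 35556 clusters entered the Benjamini-Hochberg adjustment, with a threshold of 0.05. The unpaired t test, which the methods name for the GeneSpring values, was run here on the deposited values with the same adjustment. For the Partek values the methods name a one-way ANOVA. The procedure was tested on simulated data.

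The members and the 16 other gene lists were chosen with earlier results of these data known. The genes named are the members, the called genes and otherwise up to 4 with the smallest p in each list, the genes nearest in pattern (10 to the mean, 5 to Ttr), Lcn2 and Tbp. Kcnj13, Kcne2 as a marker, Cab39l, Rbp4, Slco1c1, Dio2, Crabp2, Dio3 and Prl fall outside that rule and were chosen after their values were seen. The alternatives were the methods' t-test, eBayes with a trend, quantile normalization, median centring, leaving out the dimmest 40% of clusters, testing single-gene clusters alone, a block on the replicate number, each array left out, LPS replicates 1 and 2 both left out, an adjusted p under 0.1, the mean of a gene's clusters and an offset of 32 on the linear scale. For Stra6 and Dcn they were added after seeing the data. Arrays have no read depth, and precision is limited by their number.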

Additional observations from a re-analysis of the deposited data

How the results depend on the processing

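Of the choroid plexus genes 0 to 1 were called when each array was left out in turn, and of the other choroid plexus markers 0 to 3. Both counts were highest without LPS replicate 3, in a fit that called 10.7% of all clusters. Under the other alternatives run for each count, it was 0. The offset was run for single genes only, and the mean of a gene's clusters was not run for the other markers. The genes whose groups were apart numbered 0 to 6 with 1 array left out, and 5 with LPS replicates 1 and 2 both left out, where the median difference of the 8 genes was 0.24. Groups are apart more often when fewer arrays are compared. The count of 6 was without LPS replicate 3, and LPS replicates 1 and 2 were both below all PBS arrays in 22.2% of all clusters. In all 5 genes of the other count LPS replicate 3 lay above all PBS arrays, as it did in 26.7% of all clusters. It lay below them in 0 of the 8 genes, against 31.6% of all clusters. The clusters called over the whole array were 254, against 5 in the methods' t-test, 151 with each array centred on its median, 83 with LPS replicates 1 and 2 both left out, 420 at an adjusted p under 0.1, and 74 to 3792 with 1 array left out. With the replicate block they were 80, with 0 choroid plexus genes among them. Same-numbered arrays correlated in their deviations from the group means at 0.09, -0.05 and 0.10 over all clusters. In the mean of the 8 genes, replicate 3 was the highest array of both groups, at 0.10 in PBS and 0.23 in LPS relative to the PBS mean. Whether same-numbered arrays share more than a number was not tested. The block gives no separate value for groups that are apart.

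Differences that changed sign were all uncalled. With LPS replicates 1 and 2 both left out they were 0.14 for Ttr, 0.53 for Kl, 0.35 for Clic6, 0.18 for Folr1, -0.0068 for Aqp1, -0.085 for Otx2 and 0.29 for Slc4a5. After quantile normalization they were -0.058 for Aqp1, -0.061 for Otx2 and -0.053 for Sostdc1, and after median centring -0.071, -0.061 and -0.087. Median centring moved the median difference of all clusters by -0.09, which is larger in size than these 3 differences were before it. With 1 array left out, differences ran from -0.43 to 0.083 for Kl, from -0.51 to 0.0031 for Clic6, from -0.047 to 0.073 for Aqp1, from -0.050 to 0.12 for Otx2 and from -0.22 to 0.16 for Sostdc1. Aqp1 was among the dimmest 40% of clusters and was not tested there.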
